A study of Mus musculus with 117 samples.

Results

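Galectins and lipocalin 2 were followed in mouse spinal cord astrocytes through 6 genes taken by name: Lgals1, Lgals3, Lgals8 and Lgals9, which encode galectins, Lgals3bp, which encodes a secreted glycoprotein that binds galectins, and Lcn2, which encodes lipocalin 2. They are 6 of the 27179 genes counted in each of 117 libraries, and all 6 passed the low-count filter in every comparison described here. All mice carried the RiboTag allele, which gains a haemagglutinin tag on a ribosomal subunit wherever Cre has acted, and ribosomes of recombined cells were pulled down by this tag with the mRNA they carried. RNA on the beads gave a RiboTag library and RNA left in the supernatant gave a Flow library of the remaining tissue. In Aldh1l1-CreERT2-RiboTag mice the astrocyte promoter Aldh1l1 drives a tamoxifen-dependent Cre, and RiboTag and Flow libraries came from young adult females that were uninjured (n = 4) or at 2 d (n = 5), 5, 14, 28, 42 or 70 d (n = 4 each) after a complete crush spinal cord injury (SCI). Males of this line were taken at 5 d (n = 4) and 14 d (n = 4). In mGfap-Cre-73.12-RiboTag mice the Gfap promoter drives a Cre that needs no drug. Here both kinds of library came from 5 injured females (14 d) and 5 uninjured adults of postnatal day P63, of which 3 were labelled male and 2 female. RiboTag libraries alone came from uninjured mice of this line at P0 (n = 4, all labelled male), P3 (n = 3), P7 (n = 3), P14 (n = 5), P21 (n = 4) and P35 (n = 4). The injured tissue block ran from 1 mm rostral to 1 mm caudal of the middle of the lesion core, so it held the core and the tissue bordering it. Of the Flow libraries, 1 at 5 d (replicate 4), labelled male although its title is not, was kept with the females.

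Galectins are lectins that bind β-galactoside sugars on glycoproteins, at the cell surface, in the matrix and on damaged endosomes, and they leave cells without a classical signal peptide. Galectin 3 is best known in the injured central nervous system from activated microglia and macrophages, galectin 1 and galectin 9 from immune regulation, and galectin 8 from the recognition of broken vesicles. Lipocalin 2 is a secreted acute-phase protein that sequesters iron bound to siderophores. It is stored in neutrophil granules and is also a widely used marker of reactive astrocytes.

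In GRCm38.p6 (mm10) coordinates, Lgals1 (Entrez 16852) lies at chr15:78926725-78930465, Lgals3 (16854) at chr14:47373860-47386167, Lgals3bp (19039) at chr11:118392747-118401959, Lgals8 (56048) at chr13:12439402-12464977, Lgals9 (16859) at chr11:78962979-78984924 and Lcn2 (16819) at chr2:32384637-32387739. RefSeq start windows of 300 bases (250 before to 50 after an annotated transcript start) were found for 5 of the 6 genes, and not for Lgals1. The window of Lgals8 is not printed. The 4 windows below are those of Lcn2, Lgals3, Lgals9 and Lgals3bp, and capitals mark a match. They lie at chr2:32387690-32387989 on the minus strand (Lcn2), chr14:47373610-47373909 on the plus strand (Lgals3), chr11:78984875-78985174 on the minus strand (Lgals9) and chr11:118401910-118402209 on the minus strand (Lgals3bp).
Lcn2: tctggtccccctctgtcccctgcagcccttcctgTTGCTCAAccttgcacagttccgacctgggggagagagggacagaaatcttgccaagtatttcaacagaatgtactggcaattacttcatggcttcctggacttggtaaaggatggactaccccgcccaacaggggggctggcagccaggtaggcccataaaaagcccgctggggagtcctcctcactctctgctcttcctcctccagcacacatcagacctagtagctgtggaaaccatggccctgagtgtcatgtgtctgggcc
Lgals3: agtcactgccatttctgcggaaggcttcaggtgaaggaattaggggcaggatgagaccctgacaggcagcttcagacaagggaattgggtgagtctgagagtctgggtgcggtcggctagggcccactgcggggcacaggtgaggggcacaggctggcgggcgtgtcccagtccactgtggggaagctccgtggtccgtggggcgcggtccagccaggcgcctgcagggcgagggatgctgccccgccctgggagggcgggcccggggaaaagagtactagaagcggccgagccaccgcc
Lgals9: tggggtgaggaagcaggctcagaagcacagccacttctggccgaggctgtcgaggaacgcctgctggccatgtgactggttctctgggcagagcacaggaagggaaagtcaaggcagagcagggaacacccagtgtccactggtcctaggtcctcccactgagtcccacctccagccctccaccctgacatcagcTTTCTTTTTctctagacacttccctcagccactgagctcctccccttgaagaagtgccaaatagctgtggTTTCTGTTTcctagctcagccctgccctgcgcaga
Lgals3bp: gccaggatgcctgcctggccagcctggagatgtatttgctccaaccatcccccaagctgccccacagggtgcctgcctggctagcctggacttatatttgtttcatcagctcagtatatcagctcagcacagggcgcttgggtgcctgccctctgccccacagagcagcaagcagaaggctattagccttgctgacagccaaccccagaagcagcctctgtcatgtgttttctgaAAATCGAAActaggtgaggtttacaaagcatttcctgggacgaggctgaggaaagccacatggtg

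Motifs were searched on both strands as the letters TTCNNNGAA (STAT), TTGCNNAA (C/EBP), TGANTCA (AP-1) and AAANNGAAA (the core of interferon-stimulated response elements, added after the windows had been seen), and by the kappaB consensus. Lcn2 held 1 C/EBP match, with its first base at −216 from the start, and 10.8% of 32851 RefSeq windows of this length held one. Lgals9 held 2 interferon-response cores, at −55 and 15, and Lgals3bp 1 at −15, against 10.55% of all windows. A kappaB match, present in 4.51% of windows, was found in the Lgals8 window (chr13:12461689-12461988, minus strand), which belongs to a start inside the annotated gene. No STAT (8.3% of windows) or AP-1 (7.81%) match lay in the 5 windows. Lgals3 held none of these motifs and had 18 CpG dinucleotides at a GC content of 67.0%, whereas the printed Lcn2, Lgals9 and Lgals3bp windows had 3, 4 and 3. These matches are descriptions of the letters in these windows.

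Libraries held 67253656 to 128400518 counted reads (RiboTag) and 40710428 to 136008399 (Flow). Levels are given as CPM (each library scaled to the same total) on 1 TMM scale over all libraries, and as FPKM (CPM per kb of exon) where genes are compared with each other. Summed over 12 astrocyte markers, RiboTag libraries of the Aldh1l1 line held 70780 to 83260 CPM uninjured, 27970 to 38080 at 2 d and 64560 to 68930 at 70 d, against 2636 to 9021 in all its Flow libraries from females. All of 12 macrophage and pan-myeloid markers were detected in these RiboTag libraries, where their sum was 63.4 to 121 CPM uninjured, 1873 to 3386 at 2 d, 16300 to 21210 at 5 d, 12040 to 18550 at 14 d and 1513 to 4835 at 70 d. All of 12 neutrophil markers were detected as well, with a sum of 117 to 486 CPM uninjured, 389 to 1083 at 2 d, 122.5 to 323 at 5 d and 217 to 740 at 70 d. In mGfap RiboTag libraries the neutrophil sum was 2.34 to 9.64 CPM at P63, with the defining marker Ly6g at 0 in every library, and 6.01 to 45.0 at 14 d after SCI. Their oligodendrocyte marker sum was 26330 to 39420 CPM at 14 d after SCI, against 2269 to 2957 in the Aldh1l1 line. In pooled cells, fewer cells of a type and less RNA per cell cannot be told apart.

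In uninjured Aldh1l1 RiboTag libraries Lgals1 was the most abundant member per length, at 101 ± 27.2 FPKM (SD, n = 4). Lgals3 (18.5 ± 5.02 FPKM), Lgals8 (18.3 ± 0.240) and Lcn2 (17.1 ± 8.96) did not differ beyond their spread, Lgals3bp (11.5 ± 2.72) overlapped Lcn2, and Lgals9 (2.87 ± 1.59) was below all the others. Injury changed this order. At 5 d Lgals1 (1922 ± 243 FPKM, n = 4) and Lgals3 (1372 ± 127) stood far above Lgals9 (60.0 ± 5.64), Lcn2 (55.7 ± 23.3), Lgals8 (23.3 ± 1.66) and Lgals3bp (20.8 ± 5.77). At 70 d Lcn2 (528 ± 128 FPKM, n = 4), Lgals3 (408 ± 84.9) and Lgals1 (382 ± 46.2) led the list within each other's spread, followed by Lgals8 (21.9 ± 3.10), Lgals9 (11.2 ± 1.68) and Lgals3bp (6.35 ± 3.15).

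**Figure D1:**
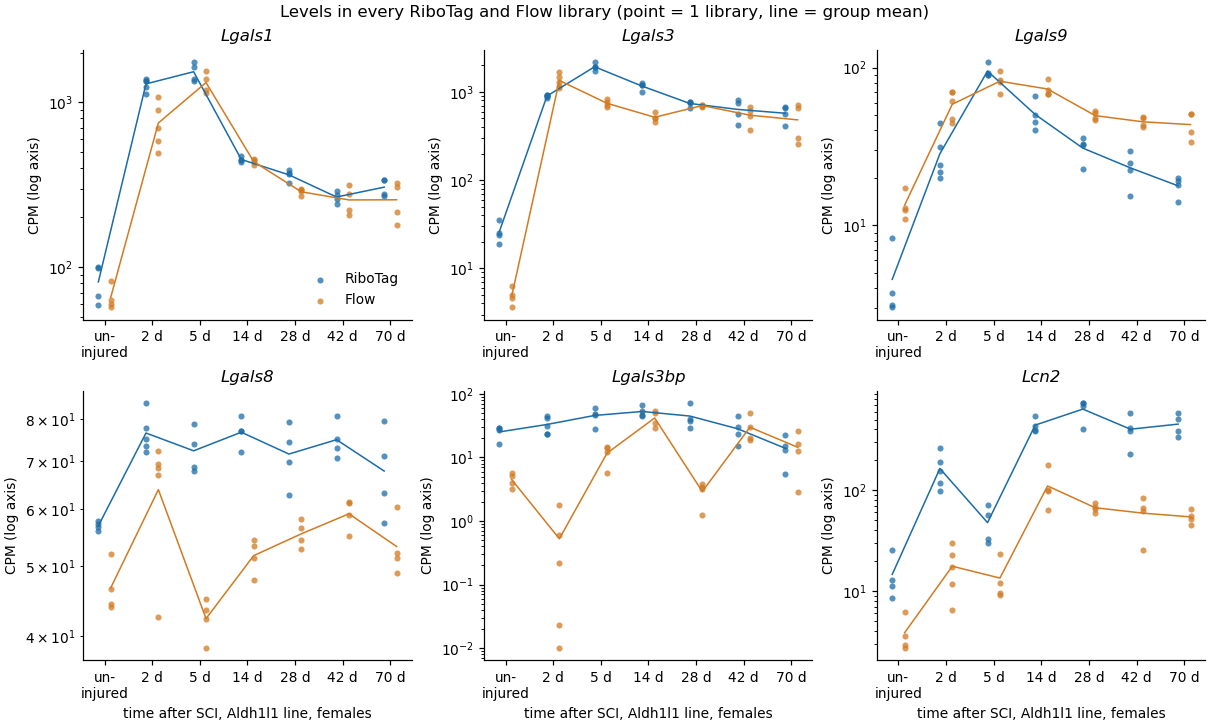
Levels of the 6 genes in every library of the Aldh1l1 line from females, in CPM on log axes, over 7 conditions from uninjured to 70 d after SCI. Points are libraries (blue RiboTag, orange Flow), lines join group means, and a level of 0 (1 Flow library, Lgals3bp, 2 d) is drawn at 0.01. Lgals1, Lgals3 and Lgals9 peaked early in RiboTag, Lcn2 dipped at 5 d and was high from 14 d on, and Lgals8 moved little.

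In the RiboTag time course 5 of the 6 genes were raised from 2 d to 70 d, with different peaks. Each time point was compared with the same 4 uninjured mice by two-sided edgeR quasi-likelihood tests with Benjamini-Hochberg adjustment over 18205 genes at a false discovery rate of 0.01. At 2 d, 5 of the 6 genes were higher (30.2% of all genes tested were called higher). Again 5 of 6 were higher at 5 d (28.7% of genes higher), 14 d (24.5%), 28 d (22.8%), 42 d (23.3%) and 70 d (23.9%). The gene that was never called was Lgals3bp.

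Lgals3 rose the most among the galectins. Its RiboTag level was 35.8, 25.3, 24.1 and 18.9 CPM in the 4 uninjured mice and 847, 897, 931, 931 and 889 CPM in the 5 mice at 2 d, a log2 fold change of 5.12 ± 0.20 (SE, adjusted p = 1.3e-18). At 5 d it reached 1902, 1895, 2174 and 1744 CPM, 72.9-fold above the uninjured level (log2 6.19 ± 0.21, adjusted p = 3.6e-19). Every injured library at every time was above every uninjured one, and the 5 d libraries were above all others of the time course. The step from 2 to 5 d was a rise of 1.07 ± 0.16 on the log2 scale (adjusted p = 1.8e-06), and the step from 5 to 14 d fell by 0.76 ± 0.17 (adjusted p = 6.8e-04). At 70 d, 411, 558, 670 and 655 CPM remained, 22.2-fold above the uninjured level (adjusted p = 1.4e-16).

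Lgals1 moved early as well and came down faster. It was at 101, 98.9, 66.4 and 58.6 CPM in uninjured mice, at 1130, 1354, 1356, 1398 and 1248 CPM at 2 d and at 1359, 1644, 1758 and 1391 CPM at 5 d. These are log2 rises of 4.01 ± 0.14 and 4.22 ± 0.15 (adjusted p = 1.8e-19 and 3.6e-19), and the 2 and 5 d values overlapped each other but not the uninjured ones. From 5 to 14 d Lgals1 fell by 1.80 ± 0.13 on the log2 scale (adjusted p = 4.0e-11), to 435, 444, 448 and 475 CPM. It was still 3.79-fold above uninjured mice at 70 d (log2 1.92 ± 0.13, adjusted p = 1.5e-12).

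Lgals9 peaked at 5 d and then declined. The uninjured libraries held 3.74, 8.29, 3.13 and 3.03 CPM and the 5 d libraries 89.8, 108, 93.1 and 89.5 CPM, a log2 rise of 4.36 ± 0.31 (adjusted p = 3.7e-12). At 2 d it stood at 44.9, 21.9, 31.4, 19.96 and 24.1 CPM, above all uninjured and below all 5 d libraries, and the step from 2 to 5 d was 1.71 ± 0.26 (adjusted p = 3.6e-06). By 70 d it was at 18.01, 14.0, 19.1 and 20.1 CPM, 3.93-fold above uninjured mice (adjusted p = 2.1e-06). The fall from 5 to 14 d, 0.94 ± 0.27 on the log2 scale, passed the threshold (adjusted p = 0.0077) but was lost without any single one of 7 of the 8 libraries compared, all but 14 d replicate 2 (adjusted p 0.012 to 0.031), and without the low-count filter (0.011).

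Lgals8 changed least among the called genes. It was tight in uninjured mice, at 57.2, 56.0, 56.7 and 57.7 CPM, and stood at 84.2, 73.5, 77.9, 72.1 and 74.98 CPM at 2 d (log2 0.43 ± 0.08, adjusted p = 1.9e-05). The log2 rise was between 0.26 and 0.43 at all 6 times, and from 2 to 42 d every injured library was above every uninjured one. At 70 d the libraries held 79.5, 57.3, 63.3 and 71.1 CPM, and 1 of them (replicate 2) lay within the uninjured range. The 70 d call (log2 0.26 ± 0.08, adjusted p = 0.00905) was lost without any one of 6 libraries, all 4 uninjured ones and 70 d replicates 1 and 4 (adjusted p 0.016 to 0.071), with only the groups compared (0.083) and without the low-count filter (0.012).

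Lgals3bp had no called change in RiboTag libraries. Its levels were 16.4, 28.6, 29.04 and 26.9 CPM uninjured, 44.6, 67.0, 46.6 and 53.5 CPM at 14 d and 15.2, 5.42, 12.99 and 22.3 CPM at 70 d. The 14 d libraries were all above and the 70 d libraries all below the upper 3 uninjured values, with log2 differences of 1.01 ± 0.36 (adjusted p = 0.0188) and −0.85 ± 0.36 (adjusted p = 0.0495). DESeq2, in place of edgeR, called the 14 d difference (log2 1.02, adjusted p = 0.0081), and a fit of only the groups compared called those at 5 and 14 d (adjusted p = 0.0092 and 0.0011).

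Lcn2 followed a course of its own, with a rise, a dip and a lasting plateau. The uninjured libraries held 25.7, 12.9, 8.53 and 11.2 CPM and the 2 d libraries 97.1, 153, 117, 188 and 262 CPM, an 11.3-fold rise (log2 3.50 ± 0.38, adjusted p = 9.7e-09). At 5 d Lcn2 was back at 56.6, 29.9, 32.4 and 71.3 CPM, below every 2 d library and above every uninjured one, a step that fell by 1.81 ± 0.35 on the log2 scale (adjusted p = 9.8e-05). Between 5 and 14 d it rose 9.07-fold (log2 3.18 ± 0.38, adjusted p = 4.0e-07), to 433, 547, 388 and 392 CPM, while Lgals1, Lgals3 and Lgals9 fell. It then held 684, 722, 402.6 and 728 CPM at 28 d, 412.7, 230, 384 and 577 CPM at 42 d and 501, 576, 388 and 335 CPM at 70 d, 31.1-fold above uninjured mice (log2 4.96 ± 0.41, adjusted p = 3.4e-10). All libraries from 14 d on were above all at 5 d.

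The dip at 5 d coincided with the highest macrophage and pan-myeloid marker sum of the time course and with astrocyte marker sums of 29570 to 44190 CPM. The astrocyte sums were also low at 2 d, 27970 to 38080 CPM, where Lcn2 was above every 5 d library. The part of these sums in the dip was not tested. Among the uninjured mice, the one with the highest Lcn2 (replicate 1, 25.7 CPM) also had the highest neutrophil marker sum, 486 CPM against 117 to 203 in the other 3. The same mouse also held both highest values at 5 d (replicate 4) and 14 d (replicate 2), but not at 28, 42 and 70 d. At 2 d the mouse with the highest sum (replicate 1, 1083 CPM) had the lowest Lcn2, 97.1 CPM. The part of neutrophil RNA in these levels was not tested. At 28 d, where Lcn2 was 402.6 to 728 CPM, the neutrophil sum was 147 to 264 CPM, and its part there was not tested either. Lgals3, Lgals1 and Lgals9 had their highest levels at 5 d, the time of the highest myeloid sum, and the part of myeloid RNA in them was not tested.

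Beyond 14 d no single step was called. Of the 6 genes, 4 had a called step from 5 to 14 d (12.7% of genes were called higher and 12.6% lower) and 3 from 2 to 5 d (21.8% and 19.6%). In edgeR, 0 of 6 passed in each of the steps from 14 to 28 d (7.4% of genes called), 28 to 42 d (1.67%) and 42 to 70 d (12.6%), with 2, 1 and 1 genes at an unadjusted p under 0.05 and 1, 0 and 0 called by DESeq2. The gene that DESeq2 called from 14 to 28 d was Lgals3, which fell by 0.62 on the log2 scale there (adjusted p = 0.0029). The 14 and 70 d libraries were not compared in a test of their own. Those of Lgals1 (435 to 475 and 271 to 339 CPM) and Lgals3 (986 to 1272 and 411 to 670 CPM) did not overlap and were lower at 70 d. The same held for Lgals9 (40.4 to 66.2 and 14.0 to 20.1 CPM) and Lgals3bp (44.6 to 67.0 and 5.42 to 22.3 CPM). How many of all genes separate in this way was not counted.

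The Flow libraries asked the same question in the tissue left after the pulldown, again against 1 set of 4 uninjured mice. At 2 d all 6 genes changed, 5 higher (32.6% of 19207 genes higher) and Lgals3bp lower (32.9% lower). At 5, 28 and 70 d Lgals1, Lgals3, Lgals9 and Lcn2 were higher (4 of 6, with 27.7%, 26.4% and 21.8% of genes higher), joined by Lgals3bp at 14 d (5 of 6, 24.6%) and by Lgals3bp and Lgals8 at 42 d (6 of 6, 25.3%). The Lgals8 call at 42 d (log2 0.36 ± 0.11, adjusted p = 0.00738) was lost with RLE scaling (log2 0.24, 0.055), with DESeq2 (0.047) and without any one of 7 libraries, all but 42 d replicate 4 (0.015 to 0.048).

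Lgals3 in Flow went from 6.25, 4.96, 4.61 and 3.62 CPM uninjured to 1667, 1305, 1173, 1494 and 1110 CPM at 2 d, a 284-fold rise (log2 8.15 ± 0.31, adjusted p = 2.3e-18), with its highest libraries at 2 d rather than 5 d. Flow macrophage and pan-myeloid marker sums were 268.8 to 327 CPM uninjured and 4267 to 9077 at 2 d, and their part was not tested. Lgals3bp in Flow was irregular. It measured 3.23, 5.64, 5.16 and 3.899 CPM uninjured, 1.79, 0.0235, 0.220, 0.600 and 0 CPM at 2 d (log2 −3.02 ± 0.66, adjusted p = 1.8e-04), 35.1, 53.1, 28.9 and 50.2 CPM at 14 d (log2 3.24 ± 0.66, adjusted p = 1.4e-04) and 3.41, 3.24, 3.79 and 1.23 CPM at 28 d (log2 −0.63 ± 0.62, adjusted p = 0.397). The 2 d libraries were all below and the 14 d libraries all above the uninjured ones, and the 28 d libraries overlapped them. With only the groups compared in the fit, the fall at 2 d lost its call (adjusted p = 0.028), as did the rise of Lgals8 at 2 d (adjusted p = 0.040), while Lgals3bp at 5 d (1.42, adjusted p = 0.00057) and Lgals8 at 28 d (0.245, adjusted p = 0.0054) gained one. Without 2 d replicate 1 the fall of Lgals3bp at 2 d was 4.36 on the log2 scale (adjusted p = 2.1e-06). The 70 d difference of Lgals3bp (log2 1.71 ± 0.63, adjusted p = 0.0254) was called without 70 d replicate 2 (2.01, adjusted p = 0.0075). Lcn2 in Flow stayed lower than in RiboTag, with 6.21, 3.56, 2.94 and 2.71 CPM uninjured and 44.7, 52.1, 65.2 and 54.9 CPM at 70 d (log2 3.83 ± 0.42, adjusted p = 1.7e-08).

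**Figure D2:**
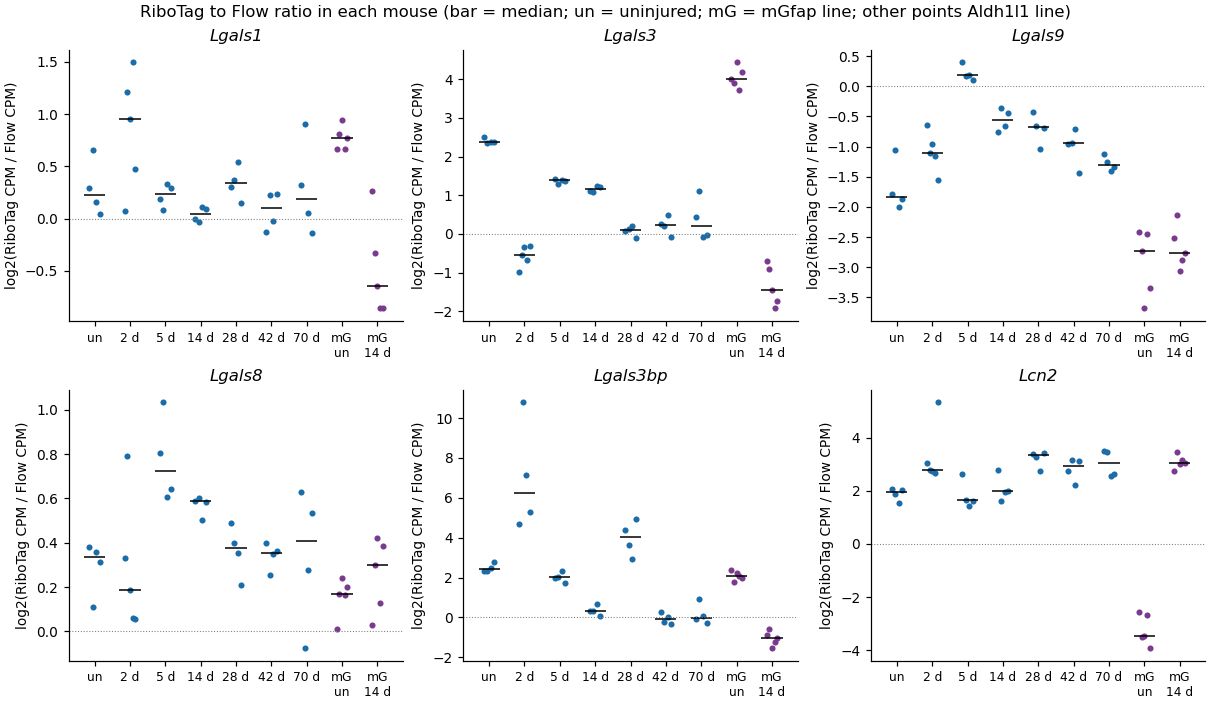
The log2 ratio of RiboTag to Flow CPM for the 6 genes, in pairs of libraries of the same replicate number, each taken as a mouse. Aldh1l1 females from uninjured (un) to 70 d after SCI are in blue and the mGfap line (mG) in purple. Points are mice, bars are medians, and the dotted line marks equal levels. Lcn2 lay above 0 in all Aldh1l1 mice and below 0 in all 5 uninjured mGfap mice, and Lgals3 fell below 0 at 2 d.

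Each mouse gave both libraries per the methods, and those of the same replicate number were taken as 1 mouse. The ratio of RiboTag to Flow describes how far a transcript is concentrated in the pulldown. Uninjured Aldh1l1 mice had 4 of the 6 genes higher in RiboTag (30.7% of 17595 genes) and 1 lower (31.3%). Lgals3bp (5.68-fold), Lgals3 (5.42-fold), Lcn2 (3.83-fold) and Lgals8 (1.23-fold) were higher, Lgals9 was 2.92-fold lower, and Lgals1 was not called (log2 0.33 ± 0.19, adjusted p = 0.144). Lgals8 lost its call without Flow replicate 3 (adjusted p = 0.013).

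Lcn2 was higher in RiboTag than in Flow in every one of the 29 Aldh1l1 females and at each of the 7 conditions, by 3.30-fold at 5 d (adjusted p = 0.00685) to 9.41-fold at 28 d (adjusted p = 5.3e-07). The 5 d call was lost without any one of 6 libraries, all but RiboTag replicate 2 and Flow replicate 4 (adjusted p 0.01 to 0.026). The neutrophil marker sum was also higher in RiboTag than in Flow, at 117 to 486 against 22.5 to 77.3 CPM in uninjured mice and 217 to 740 against 95.5 to 159 at 70 d, and its part in the Lcn2 ratio was not tested. Over the time course 3 genes were higher and 2 lower at 2 d (27.7% and 28.1% of genes), 4 higher and 0 lower at 5 d (32.4% higher), 3 and 1 at 14 d (30.7% and 31.7%), 4 and 1 at 28 d (32% and 32.4%), 2 and 1 at 42 d (24.1% and 22.7%) and 1 and 1 at 70 d (22.6% and 23.1%). Lgals9 was lower in RiboTag at every time except 5 d, where the difference was 0.11 ± 0.10 on the log2 scale (adjusted p = 0.31). Lgals3bp was 60.5-fold higher in RiboTag at 2 d and 15.2-fold at 28 d, the times of its lowest Flow levels, and was not called at 14, 42 and 70 d. Its Flow libraries at 2 d held only 135, 1, 17, 36 and 0 counts, so the size of that fold is uncertain. Its log2 ratio at 2 d, 5.92, was 7.29 without Flow replicate 1 and 6.74 with the libraries paired by mouse. Lgals8 was called higher at 5, 14, 28 and 42 d as well (log2 0.36 to 0.67), and at 42 d it lost the call without any one of RiboTag replicates 1, 2 and 3 and Flow replicates 3 and 4 (adjusted p 0.012 to 0.022).

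Lgals3 switched sides. It was 5.42-fold higher in RiboTag uninjured (adjusted p = 8.7e-07), 1.53-fold lower at 2 d (log2 −0.62 ± 0.13, adjusted p = 9.6e-04), 2.42-fold higher at 5 d (adjusted p = 4.4e-08) and 2.13-fold higher at 14 d (adjusted p = 4.9e-07). At 28, 42 and 70 d no difference was called, with log2 values of 0.07 ± 0.06, 0.23 ± 0.22 and 0.23 ± 0.31. The change of the ratio against uninjured mice, tested in 1 model over all 58 libraries, was −2.85 ± 0.29 at 2 d (adjusted p = 2.4e-12) and −2.12 ± 0.30 at 70 d (adjusted p = 1.4e-07), and it was called at all 6 times.

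The median over all genes of this change was itself 0.297, 0.194, 0.131 and 0.101 at 2, 5, 14 and 28 d, so a change of that size is no departure from the other genes. At 2 d 1 gene of 6 was called higher (30.1% of 19640 genes) and 1 lower (20.6%). At 5 d 2 were higher (17.7%) and 1 lower (10.9%), at 14 d 1 was higher (14.5%) and 1 lower (10%), at 28 d 1 was lower (12.9%), and at 42 and 70 d 2 were lower (10.7% and 8.9%). Besides Lgals3, these were Lgals3bp at 2 d (3.59 ± 0.73), 42 d (−2.51 ± 0.71) and 70 d (−2.50 ± 0.71), Lgals9 at 5 d (1.88 ± 0.32) and 14 d (1.09 ± 0.32), and Lgals8 at 5 d (0.59 ± 0.14). Without replicate 1 of 2 d the Lgals3bp change there was 4.82. The 2 d change of Lgals3bp rests on Flow libraries of 0 to 135 counts.

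Pairing the libraries by mouse made more of these changes pass. The deviations of both libraries of 1 mouse correlated above 0.1 in only 2 of 5 mice at 2 d (r from −0.097 to 0.142) and 1 of 4 at 28 d (0.012 to 0.175). Without pairing, Lcn2 and Lgals1 passed at 2 d without any one of 3 mice each (2 d replicates 2 and 4 and uninjured replicate 1 for Lcn2, 2 d replicates 1 and 5 and uninjured replicate 2 for Lgals1, adjusted p 0.0054 to 0.0097 and 0.00095 to 0.0076), and Lgals9 at 2, 28 and 42 d without uninjured replicate 2 (1.00, 1.27 and 0.99). With pairing, Lgals1 (log2 0.72, adjusted p = 0.00309) and Lcn2 (1.54, adjusted p = 0.00112) passed at 2 d, Lcn2 again at 28 d (1.40, adjusted p = 0.00532), and Lgals9 at 2, 28 and 42 d (0.75, 1.04 and 0.74, adjusted p = 6.7e-04, 5.4e-05 and 0.00264). Lgals3bp passed at 14 d, where its ratio fell by 2.06 (adjusted p = 0.00138). Without single mice the calls of Lgals3 at 5 d (any of all 8, adjusted p 0.014 to 0.026), Lgals9 at 14 d (any of 6, all but uninjured replicate 2 and 14 d replicate 1, 0.01 to 0.023), Lgals3bp at 42 d (any of 5, uninjured replicates 3 and 4 and 42 d replicates 2, 3 and 4, 0.011 to 0.016) and Lgals3bp at 70 d (any of 7, all but 70 d replicate 2, 0.012 to 0.021) were lost. Within single times, pairing lost the call that Lgals1 was higher in RiboTag at 2 d (unpaired log2 0.76 ± 0.19, adjusted p = 0.00335, paired 0.0101) and gave one to Lgals3bp at 14 d (paired log2 0.28, adjusted p = 0.00968).

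The mGfap line posed the same question with another Cre. At 14 d after SCI, 4 of the 6 were higher than in uninjured P63 mice (27.7% of 17848 genes higher). Lcn2 rose from 0.559, 0.265, 0.199, 3.17 and 0.189 CPM to 689, 297, 508, 1095 and 364 CPM, a fitted 692-fold change (log2 9.43 ± 0.76, adjusted p = 1.6e-08). The groups were far apart, although 1 uninjured library (replicate 4) stood above the other 4. Without it the log2 change was 11.03 (adjusted p = 9.3e-10), and with labelled sex as a covariate 8.52. Lgals9 rose by 3.58 ± 0.32 on the log2 scale (adjusted p = 4.3e-08), Lgals3 by 3.03 ± 0.24 (adjusted p = 1.1e-08) and Lgals1 by 2.06 ± 0.18 (adjusted p = 2.5e-08). Lgals3bp was called without 14 d replicate 1 (log2 1.04, adjusted p = 0.0021), whose level was 4.69 CPM against 15.3 to 44.5 in the other 4.

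**Figure D3:**
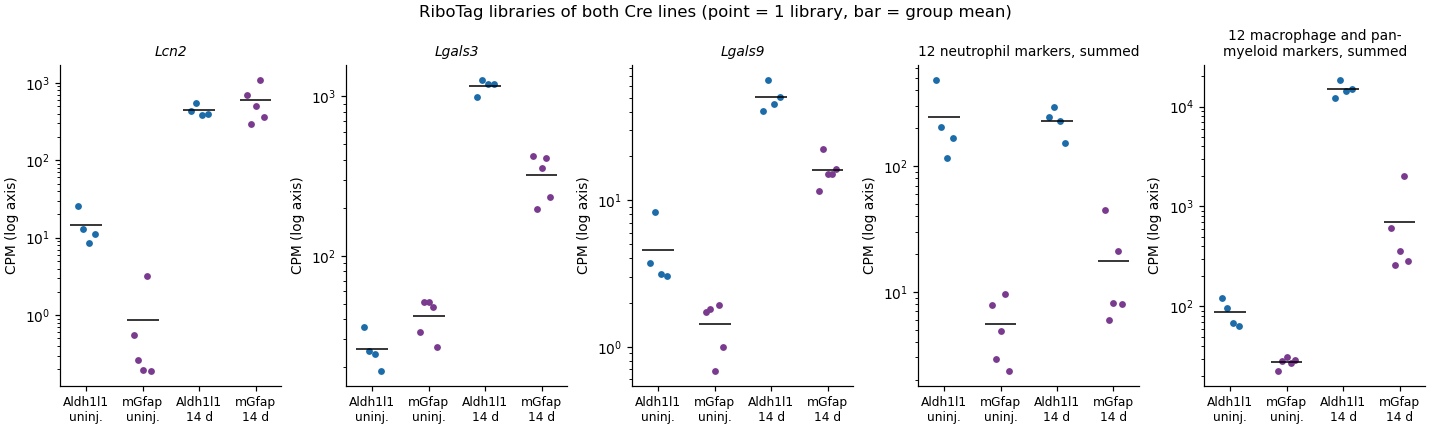
RiboTag levels of Lcn2, Lgals3 and Lgals9 and the summed levels of 12 neutrophil and 12 macrophage and pan-myeloid markers, in CPM on log axes, in uninjured and 14 d mice of both Cre lines. Points are libraries and bars are group means. Lcn2 of uninjured mice was lower in the mGfap line and overlapped between lines at 14 d, Lgals3 was lower in the mGfap line at 14 d, and both marker sums were lower in the mGfap line.

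The lines differed most in Lcn2 before injury. The uninjured mGfap libraries lay at 0.189 to 3.17 CPM and the uninjured Aldh1l1 libraries at 8.53 to 25.7, a log2 difference of −4.03 ± 0.64 (adjusted p = 2.3e-04), and Lgals9 was lower as well, at 0.682 to 1.93 against 3.03 to 8.29 CPM (log2 −1.71 ± 0.32, adjusted p = 8.5e-04). With 2 of 6 genes lower (6.86% of genes lower) and 0 higher, neither group overlapped the other. The mGfap group held 3 mice labelled male and the Aldh1l1 group none, and with labelled sex as a covariate neither call held (Lcn2 −3.12, adjusted p = 0.015, Lgals9 −1.67, adjusted p = 0.028). With only these groups in the fit the Lcn2 call was also lost (−4.02, adjusted p = 0.016) and Lgals3bp was called lower (−0.76, adjusted p = 0.0057). Without mGfap replicate 4 the Lcn2 difference was −5.63. The mGfap mice were P63 and the Aldh1l1 mice somewhat older young adults per the paper, and only the Aldh1l1 Cre needs tamoxifen. Age and drug cannot be told apart from the line here. The neutrophil marker sum differed the same way, 2.34 to 9.64 against 117 to 486 CPM, and its part in the Lcn2 difference was not tested.

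At 14 d Lcn2 no longer differed beyond the spread between the lines (log2 0.50 ± 0.55, 95% interval −0.58 to 1.58, adjusted p = 0.536), while the neutrophil sum was 6.01 to 45.0 CPM in the mGfap and 153 to 293 in the Aldh1l1 libraries. Lgals3 was 425, 197, 356, 408 and 232 CPM in the mGfap and 986, 1272, 1200 and 1190 CPM in the Aldh1l1 line, without overlap (log2 −1.77 ± 0.24, adjusted p = 1.0e-05). Lgals9 was 11.6 to 22.4 against 40.4 to 66.2 CPM, also without overlap (log2 −1.58 ± 0.30, adjusted p = 3.6e-04). These 2 of 6 were lower when 11.4% of all genes were, and the macrophage and pan-myeloid sum was lower too, 260 to 2006 against 12040 to 18550 CPM, its part not tested. Lgals3bp was called lower without mGfap replicate 2 (log2 −1.41, adjusted p = 0.0081), and Lgals8, at −0.25 ± 0.07 (adjusted p = 0.0107), was called lower with RLE scaling (−0.33, adjusted p = 0.0018), by DESeq2 (adjusted p = 1.2e-04) and without any one of 3 libraries, Aldh1l1 replicate 3 and mGfap replicates 2 and 3 (adjusted p 0.0029 to 0.0077).

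The response to injury itself differed between the lines for 2 of the 6 genes, 1 higher (7.71% of genes) and 1 lower (4.94%). It was larger in the mGfap line for Lcn2 (difference of log2 responses 4.54 ± 0.85, adjusted p = 8.4e-04) and smaller for Lgals3 (−2.43 ± 0.34, adjusted p = 4.7e-05). Both held with labelled sex as a covariate, Lcn2 only narrowly (3.62, adjusted p = 0.0092). Without mGfap uninjured replicate 4 the Lcn2 difference was 6.13. At 14 d Lcn2 did not differ between the lines beyond the spread, so this difference lay mainly in the uninjured libraries (log2 −4.03, mGfap against Aldh1l1). That uninjured call was lost with labelled sex as a covariate (adjusted p = 0.015) or with only its groups (0.016). Uninjured mGfap replicates 1, 2, 3 and 5 held 36, 18, 14 and 12 Lcn2 counts. Neutrophil sums of the uninjured lines differed too, and their part was not tested. Lgals8 was called in this test by DESeq2 (−0.42, adjusted p = 9.2e-04) and without any one of 3 Aldh1l1 libraries, uninjured replicates 3 and 4 and 14 d replicate 3 (−0.49 to −0.48, adjusted p 0.0055 to 0.0063).

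Within the mGfap line the pulldown and the Flow libraries separated Lcn2 and Lgals3 in opposite ways before and after injury. Uninjured, 3 of 6 genes were higher in RiboTag (32.6% of 17136 genes) and 1 lower (35.2%). Lgals3 was 15.99-fold higher in RiboTag (log2 4.00 ± 0.26, adjusted p = 2.7e-09) and Lgals9 7.18-fold lower. Lcn2 was lower in RiboTag, by 2.87 ± 0.93 on the log2 scale (adjusted p = 0.0141), a difference that passed when the libraries were paired by mouse (−3.17, adjusted p = 2.4e-07) or without RiboTag replicate 4 (−4.42, adjusted p = 2.1e-04). At 14 d after SCI 1 of 6 was higher (23.3%) and 2 lower (23.6%): Lcn2 was 8.12-fold higher in RiboTag (adjusted p = 2.0e-04), and Lgals3 2.73-fold (adjusted p = 0.00378) and Lgals9 6.48-fold lower. The Lgals3 call was lost without RiboTag replicate 5 (adjusted p = 0.012), and pairing called Lgals3bp lower (−1.08, adjusted p = 2.1e-04).

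**Figure D4:**
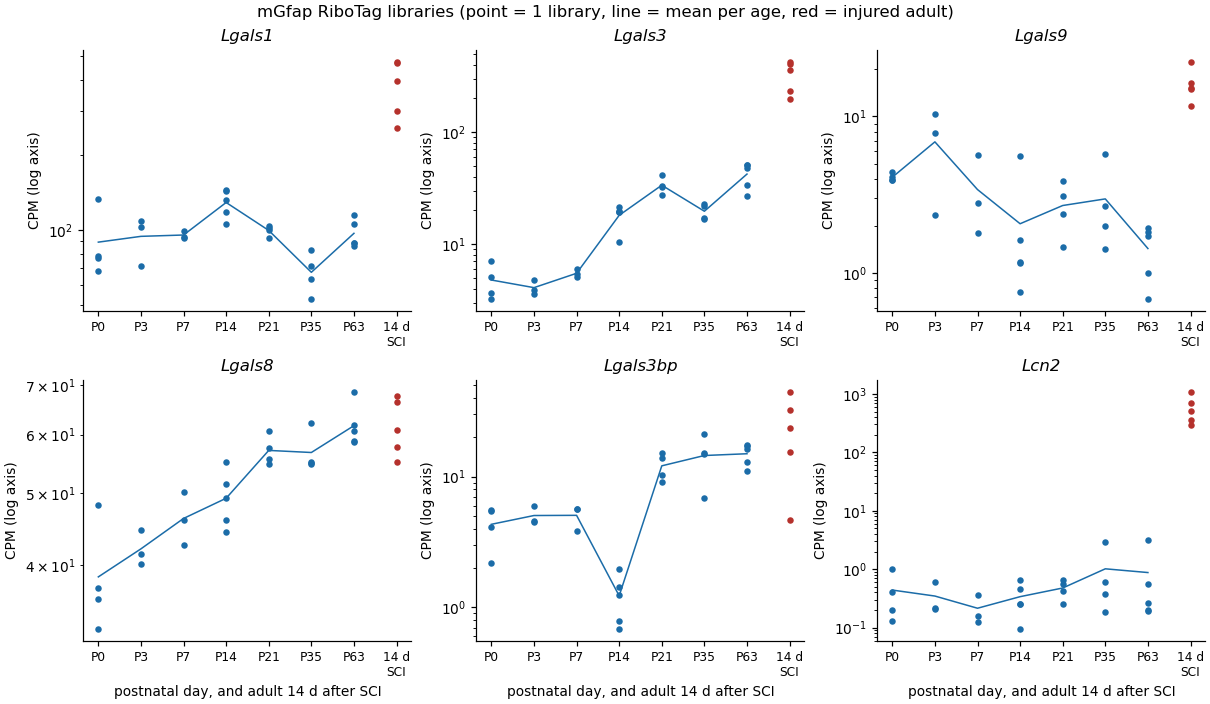
RiboTag levels of the 6 genes in the mGfap line from P0 to P63 (blue, line through group means) and in adults at 14 d after SCI (red), in CPM on log axes, with 1 point per library. Lgals3 rose between P7 and P21 and was lower at P35, and the injured adults lay above all 7 ages for Lgals1, Lgals3, Lgals9 and Lcn2.

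During maturation Lgals3 had the largest called change among the members, in the comparisons tested. It was 5.07, 3.23, 3.67 and 7.10 CPM at P0, 5.11, 5.36 and 5.96 CPM at P7 and 41.0, 27.7, 32.5 and 32.9 CPM at P21. The P21 libraries were all above the P7 ones, a 6.04-fold rise (log2 2.60 ± 0.27, adjusted p = 4.5e-08), while P7 did not differ from P0 beyond the spread (0.19 ± 0.25). At P35 Lgals3 was lower, at 16.9 to 22.6 CPM, below every library of P21 and of P63 (26.9 to 51.2 CPM). The steps to and from P35 were not tested. From P0 to P63, 3 of 6 genes were higher (25.1% of 18041 genes): Lgals3 (log2 3.12 ± 0.24, adjusted p = 1.3e-11), Lgals3bp (1.77 ± 0.31, adjusted p = 1.8e-05) and Lgals8 (0.66 ± 0.09, adjusted p = 6.8e-07). Lgals9 was lower by 1.53 ± 0.52 on the log2 scale (adjusted p = 0.0133), which DESeq2 called (0.0061). Lgals1 (0.10 ± 0.16) and Lcn2 (0.98 ± 0.89) were not called.

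From P7 to P21, 2 of 6 genes were higher (8.01% of genes). Besides Lgals3, Lgals3bp rose (1.23 ± 0.35, adjusted p = 0.00975), and its lowest levels lay in between, at P14 (0.687 to 1.98 CPM). Its call was lost without any one of 6 of the 7 libraries, all but P21 replicate 1 (adjusted p 0.012 to 0.065). From P0 to P7 (20.1% of genes called) and from P21 to P63 (9.22%), edgeR called 0 of 6, with 1 and 0 genes at an unadjusted p under 0.05 and 0 by DESeq2. The 1 gene, Lgals8, was called from P0 to P7 without P0 replicate 4 (log2 0.38, adjusted p = 0.0027). All P0 mice were labelled male, and the 3 calls from P0 to P63 held with labelled sex as a covariate. Lcn2 stayed between 0.0957 and 3.17 CPM in all 28 uninjured RiboTag libraries of the line, with 1 library above 1 CPM at each of P0, P35 and P63.

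Set beside newborn astrocytes, the injured adults of the mGfap line had all 6 genes higher than at P0 (27.5% of 18380 genes higher). The differences were 10.33 ± 0.98 for Lcn2 (adjusted p = 8.1e-10), 6.08 ± 0.30 for Lgals3 (adjusted p = 1.7e-16), 2.48 ± 0.42 for Lgals3bp (adjusted p = 7.6e-06), 2.09 ± 0.19 for Lgals1 (adjusted p = 5.1e-11), 1.97 ± 0.50 for Lgals9 (adjusted p = 0.00114) and 0.67 ± 0.09 for Lgals8 (adjusted p = 3.6e-07), on the log2 scale. Without P0 replicate 4 the Lcn2 difference was 11.23. The P0 mice were all labelled male and the injured adults all female, and labelled sex was not a covariate in this fit. Sex, age and injury cannot be told apart between these groups. For Lgals8 and Lgals3bp the P63 level had already passed the P0 level, and injury moved neither past the threshold from P63 (log2 0.09 ± 0.07 and 0.77 ± 0.37, adjusted p = 0.297 and 0.0858).

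Between males and females of the Aldh1l1 line at 5 and 14 d, edgeR called 0 of 6 genes in RiboTag libraries (0.051% of 17639 genes called), with 0 at an unadjusted p under 0.05 and 0 by DESeq2. The 95% intervals of the male minus female difference, in log2, were −0.29 to 0.44 for Lcn2, −0.18 to 0.30 for Lgals3, −0.12 to 0.24 for Lgals1, −0.17 to 0.21 for Lgals9, −0.12 to 0.06 for Lgals8 and −0.40 to 0.43 for Lgals3bp. Male Lcn2 was 69.6, 41.7, 34.9 and 44.2 CPM at 5 d and 320, 588, 443 and 580 CPM at 14 d, so the low level at 5 d was present in both sexes and did not overlap that at 14 d in either.

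**Figure D5:**
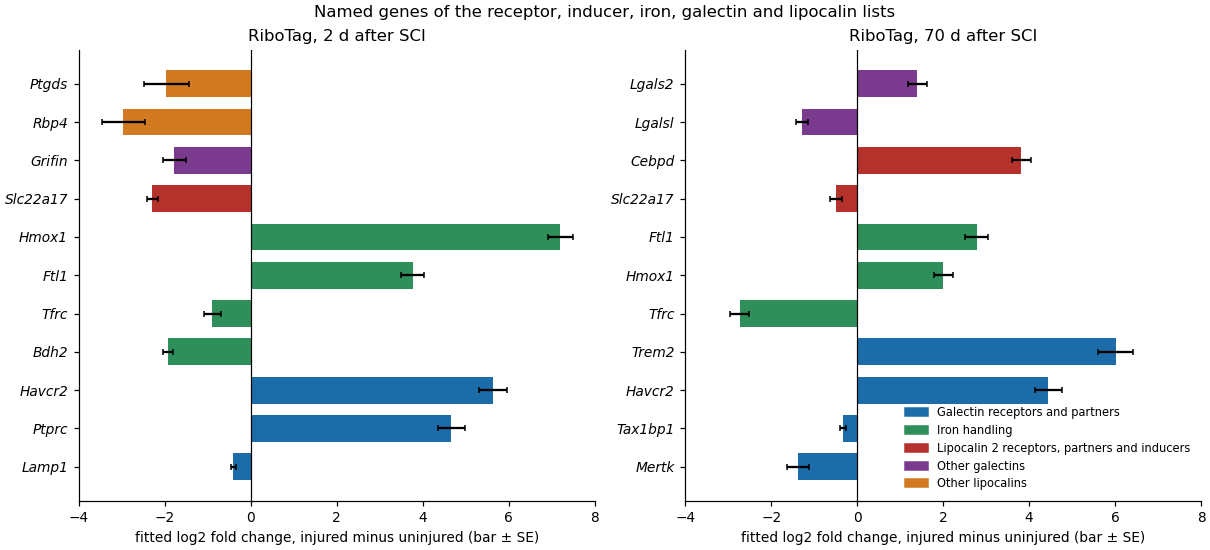
Fitted log2 fold changes ± SE in RiboTag libraries of the Aldh1l1 line at 2 d (left) and 70 d (right) after SCI against uninjured mice, for the named genes of 5 related lists, colored by list. Genes with libraries at or near 0 counts (Il6, Tnf, Orm2, Lgals12) are left out. Hmox1 and Havcr2 had the tallest bars at 2 d and Trem2 at 70 d, and Slc22a17 and Tfrc fell at both times.

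Receptors, partners and relatives of the 6 genes were read from lists. These lists were chosen with earlier results of these data known, so their counts are descriptions. Of 14 galectin receptors and partners, 10 were higher and 1 lower at 2 d and 9 higher and 2 lower at 70 d in RiboTag, with median log2 changes of 1.27 and 0.75 against −0.04 and 0.05 over all genes. Of all genes tested, 30.2% were higher and 29.9% lower at 2 d, and 23.9% higher and 21.5% lower at 70 d. Havcr2, the receptor TIM-3 bound by galectin 9, went from 0.576 ± 0.150 CPM (SD, n = 4) to 28.3 ± 6.33 at 2 d (n = 5, log2 5.63 ± 0.32, adjusted p = 3.1e-14), and Trem2, a microglial and macrophage lipid receptor, from 1.63 ± 0.166 to 105 ± 60.4 at 70 d (log2 6.01 ± 0.40, adjusted p = 7.3e-12). Ptprc, the leukocyte phosphatase CD45, rose by 4.67 ± 0.32 at 2 d (adjusted p = 1.2e-12). These 3 are also immune cell genes, and the myeloid marker sums given above moved with them, their part not tested. Mertk, a phagocytic receptor, fell by 1.38 ± 0.25 at 70 d (adjusted p = 5.3e-05), Tax1bp1, an autophagy receptor, by 0.33 ± 0.07 at 70 d (adjusted p = 1.3e-04) and the lysosomal glycoprotein gene Lamp1 by 0.40 ± 0.05 at 2 d (adjusted p = 1.1e-07).

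Of 15 receptors, partners and inducers of lipocalin 2, 13 were higher and 1 lower at 2 d (30.2% and 29.9% of all genes). At 70 d 10 were higher and 1 lower (23.9% and 21.5%), and median log2 changes were 3.56 and 1.75. The gene that fell was Slc22a17, which encodes a lipocalin 2 receptor. It went from 372 ± 23.9 CPM to 75.8 ± 8.90 at 2 d (log2 −2.29 ± 0.13, adjusted p = 1.9e-15), and at 70 d (−0.49 ± 0.13, adjusted p = 0.00215) its call was lost without 70 d replicate 2 (adjusted p = 0.015). Cebpd, a C/EBP transcription factor, rose to 139 ± 35.8 CPM at 70 d, from 9.91 ± 2.32 (log2 3.82 ± 0.22, adjusted p = 1.9e-13). The cytokine gene Il6 had 0 counts in all uninjured libraries and 24 to 186 at 2 d, at least 35.2-fold higher against a floor of 3 counts per library. Tnf had at most 2 counts in an uninjured library and averaged 2.02 CPM at 2 d and 0.527 CPM at 70 d.

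Of 8 iron-handling genes, of which 7 were tested, 5 were higher and 2 lower at 2 d (30.2% and 29.9% of all genes). At 70 d 5 were higher and 1 lower (23.9% and 21.5%), and median log2 changes were 1.33 and 0.84. Hmox1, which breaks down haem, went from 16.1 ± 2.70 to 2366 ± 746 CPM at 2 d (log2 7.21 ± 0.29, adjusted p = 1.2e-17), and Ftl1, the light chain of ferritin, from 50.6 ± 1.68 CPM upward (log2 3.77 ± 0.27, adjusted p = 2.8e-12). Tfrc, the transferrin receptor, fell by 0.89 ± 0.19 at 2 d and by 2.74 ± 0.22 at 70 d (adjusted p = 1.7e-04 and 5.4e-11), and Bdh2, an enzyme of mammalian siderophore synthesis, fell by 1.92 ± 0.12 at 2 d (adjusted p = 2.8e-14).

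Between the lines at 14 d, 12 of the 14 galectin receptors and partners, 6 of the 15 lipocalin 2 genes and 4 of the iron-handling genes were lower in the mGfap line, and 0, 1 and 0 were higher, with median log2 differences of −0.79, −0.47 and −0.76 against 0.03 over all genes, of which 11.4% were lower and 12% higher. The macrophage and pan-myeloid sum, 260 to 2006 against 12040 to 18550 CPM, was lower as well, and its part was not tested.

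Other galectins were mixed, and the shares of all genes called higher and lower at 2 d and 70 d are those given above. Of 7 listed, 6 were counted and 5 tested, with 3 lower at 2 d and 1 higher and 1 lower at 70 d and median log2 changes of −0.67 and 0.14. Lgalsl, a galectin-like gene, fell by 1.29 ± 0.14 at 70 d, from 108 ± 8.13 to 44.1 ± 8.62 CPM (adjusted p = 1.3e-08), and Lgals2 rose by 1.40 ± 0.22 (adjusted p = 5.4e-06) at a low level, 3.38 ± 0.549 CPM. Grifin fell by 1.78 ± 0.26 at 2 d (adjusted p = 8.1e-07). Lgals12 had 0 to 24 counts uninjured and 0 at 2 d, so the groups overlapped at 0 and no fold is given. It was called lower (adjusted p = 0.00293), but not with the replicate number as a block (0.011). Of 7 other lipocalins, 6 were tested, with 1 higher and 2 lower at 2 d and 1 higher at 70 d and median log2 changes of −0.99 and 0.86. Ptgds, prostaglandin D synthase, fell by 1.97 ± 0.52 at 2 d (adjusted p = 0.00185) but not without uninjured replicate 2 (−1.23, adjusted p = 0.033), and Rbp4, a retinol carrier, fell by 2.96 ± 0.50 (adjusted p = 1.2e-05). Orm2, an acute-phase protein gene, had 0 counts uninjured and 9 to 38 at 70 d, at least 8.16-fold higher.

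Genes whose level ran closest to each member over the 29 Aldh1l1 RiboTag libraries from females, by Pearson correlation of log2 CPM among 17597 genes, are given as a description, since the libraries share their time points and uninjured controls. Lgals3 ran with Capg (r = 0.990), Fcgr3 (0.987) and Hcls1 (0.985), and Lgals9 with Siglec1 (0.982), Stat6 (0.979) and Trpv2 (0.976). Fcgr3 encodes an Fc receptor and Siglec1 a sialic acid-binding lectin of macrophages. Lgals1 ran with Mcfd2 (0.978), Slc16a3 (0.977) and Srsf6 (0.972), Lgals3bp with Wasf2 (0.922), Mob1a (0.915) and Rab31 (0.896), and Lgals8 with Cited2 (0.872), Rbpj (0.866) and Vwa5a (0.853). In Flow, Wasf2 (9.32 and 8.26 CPM) and Mob1a (1.86 and 1.82) had their lowest means at 2 and 28 d, as Lgals3bp had. Rab31 was lowest in uninjured Flow libraries (83.4 CPM). Lcn2 ran with Pdzd2 (0.944), Aspg (0.943) and Vasn (0.940), which rose from 11.5 ± 1.91, 12.9 ± 0.760 and 39.7 ± 2.74 CPM uninjured to 32.2 ± 3.24, 52.4 ± 9.42 and 85.8 ± 5.79 at 70 d (SD, n = 4). Among the members, r was 0.911 between Lgals3 and Lgals9, 0.842 between Lgals1 and Lgals3, 0.582 between Lgals3 and Lcn2 and −0.067 between Lgals3bp and Lcn2. Ranked by Spearman correlation, 2 of the 3 genes stayed among the closest for Lgals8 and Lgals9, 1 for Lgals3bp, and 0 for Lgals1, Lgals3 and Lcn2.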

How the data were processed

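RNA of tagged ribosomes (RiboTag) and of the remaining supernatant (Flow) was sequenced in 117 libraries. Per the submitters' processing notes and the study's methods, the authors used Trimmomatic for trimming and HISAT2 for alignment (mm10), and deposited raw read counts per Entrez gene from featureCounts, 1 file per library. RefSeq (GRCm38.p6) symbols matched 25275 of 27179 genes. In 18 files the genes stood in another order, and all were joined by gene ID.

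Counts were fitted with edgeR 4.0.16 (R 4.3.3, limma 3.58.1) by two-sided quasi-likelihood tests, with filterByExpr, TMM scaling and Benjamini-Hochberg adjustment over all genes tested, and a false discovery rate under 0.01 was called. Each fit held all groups of its design (the RiboTag time course, the Flow time course, both fractions of 1 condition, both lines, the ages). The standard error was the absolute log2 fold change divided by the square root of F. The script was tested on simulated counts. CPM used 1 TMM scale over all libraries and FPKM divided it by the exon length. Depth was 40710428 to 136008399 counts, and floors of 3 counts cover counting error only. Mice of a group were separate animals.

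RiboTag and Flow libraries of the same replicate number were treated as 1 animal. The study's methods took both from the same immunoprecipitation, and the labels give only the number. At 5 d both libraries of replicate 4 were paired although their labelled sexes differ. In 41 of 47 pairs the deviations from the group means correlated above 0.1 (median 0.324). The other 6 were 3 of 5 at 2 d and 3 of 4 at 28 d, and pairing is given where it changed a call. Alternatives were RLE scaling, DESeq2 1.42.0, no low-count filter, a rate of 0.05, the replicate number as a block, only the groups compared, labelled sex as a covariate and leaving out each library. The members, lists and motifs were chosen with earlier results of these data known. Named list genes were the 2 with the largest called rise and fall at 2 and 70 d, and companions the 3 genes with the highest Pearson correlation of log2 CPM (prior count 2). Male Flow libraries entered no comparison.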

Additional observations from a re-analysis of the deposited data

Results flagged for a closer look

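In 156 sets of values (6 genes in 26 groups of 4 or 5 libraries), 14 libraries stood apart from the rest of their group by Dixon's criterion, which chance gives in about 1 of 20 sets. For Lgals1 these were P0 replicate 3 (133 CPM against at most 78.7) and mGfap P63 Flow replicate 2 (65.4 CPM), and for Lgals3 it was P14 replicate 2 (10.3 CPM against at least 19.2). Lgals3bp was low in uninjured Aldh1l1 RiboTag replicate 1 (16.4 CPM). Lgals8 stood apart in 2 d Flow replicate 2 (42.5 CPM against at least 67.0), in male 5 d RiboTag replicate 4 (70.7 CPM) and in P35 replicate 2 (62.2 CPM). Lgals9 was high in uninjured Aldh1l1 RiboTag replicate 2 (8.29 CPM against at most 3.74), in male 5 d Flow replicate 3 (99.1 CPM) and in P14 replicate 3 (5.60 CPM). Lcn2 was low in 28 d RiboTag replicate 3 (402.6 CPM against at least 684) and high in P35 replicate 3 (2.90 CPM). It was high in both libraries of 1 uninjured mGfap mouse, P63 replicate 4, with 3.17 CPM in RiboTag against at most 0.559 in the other 4 and 20.6 CPM in Flow against at most 3.32.

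Effects that differed between groups in their own test were the response to injury between lines, −2.43 for Lgals3 and 4.54 for Lcn2 on the log2 scale, and the change of the RiboTag to Flow ratio against uninjured mice. That change was −2.85, −0.94, −1.18, −2.28, −2.12 and −2.12 for Lgals3 over the 6 times in order, 3.59, −2.51 and −2.50 for Lgals3bp at 2, 42 and 70 d, 1.88 and 1.09 for Lgals9 at 5 and 14 d, and 0.59 for Lgals8 at 5 d.

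Flow libraries of males entered no comparison. Their lowest levels were above every uninjured female Flow library for Lgals1 (990 CPM at 5 d and 264 at 14 d, against at most 82.5), Lgals3 (590 and 347 against 6.25), Lgals9 (70.5 and 54.7 against 17.3), Lcn2 (8.87 and 37.0 against 6.21) and, at 14 d, Lgals3bp (30.7 against 5.64). No uninjured males of the line were analysed here.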

How the results depend on the processing

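Of the members' results, 245 of 252 kept direction and side of the threshold with RLE scaling, 242 of 252 with DESeq2, 244 of 252 without the low-count filter, 231 of 252 at a rate of 0.05, 167 of 186 with only the groups compared, 45 of 48 with labelled sex as a covariate and 2084 of 2214 without single libraries. The causes of changes were not tested. Counts of members called moved at a rate of 0.05 from 0 to 1 for the steps 14 to 28, 28 to 42 and 42 to 70 d, from 2 to 4 between lines at 14 d and in the ratio change at 14 d, from 2 to 5 in the ratio change at 2 d and from 1 to 3 at 28 d. The step from 14 to 28 d gave 1 with DESeq2 and with only its groups, the ratio change at 28 d gave 2 with RLE, DESeq2 or no filter and at 70 d 1 without the filter, and labelled sex gave 0 between uninjured lines and 1 from P7 to P21. Leaving out single libraries gave 1 to 2 from P7 to P21, 0 to 1 from P0 to P7, 2 to 4 between lines at 14 d, and 2 to 4, 1 to 2, 1 to 2, 1 to 3 and 1 to 2 in the ratio change at 2, 14, 28, 42 and 70 d.

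With the replicate number as a block, 235 of 252 results kept their call. Across groups the numbers do not mark the same mouse (7 of 24 pairs correlated above 0.1, −0.366 to 0.347), and there the block gave 1 member called from P7 to P21 and left Lgals8 at 70 d uncalled. Where the block paired RiboTag with Flow, it gave 5 called in the ratio change at 2 d and 3 at 28 d and turned Lgals3bp at 70 d to 0.11. Other uncalled values that changed sign were Lgals8 in the mGfap line at 14 d (−0.021 with only its groups), Lgals1 and Lcn2 in the ratio change at 5 d (−0.094 and −0.093 both with RLE and with DESeq2, −0.015 and −0.019 with only its groups), and Lgals1 in the ratio change at 70 d (0.028 with RLE or DESeq2, 0.072 without the filter, 0.042 with the block) and Lgals8 there (−0.062 with only its groups).

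Without single libraries, uncalled values spanned 0 as follows: Lgals9 from P7 to P21 (−0.64 to 0.24), Lcn2 from P0 to P63 (−0.55 to 1.85) and P21 to P63 (−0.64 to 1.15), Lgals1 from P21 to P63 (−0.095 to 0.005) and P0 to P7 (−0.018 to 0.35), Lgals9 from P0 to P7 (−0.84 to 0.039), Lgals8 from 14 to 28 d (−0.10 to 0.011), Lgals3bp at 42 d (−0.12 to 0.38), Lcn2 from 42 to 70 d (−0.040 to 0.39), RiboTag against Flow for Lgals1 (−0.010 to 0.19) and Lgals3bp (−0.38 to 0.31) at 42 d and Lgals3bp at 70 d (−0.42 to 0.39), Lgals9 between line responses (−0.34 to 0.28), males against females for Lcn2 (−0.029 to 0.20), Lgals3 (−0.037 to 0.12), Lgals3bp (−0.084 to 0.15) and Lgals9 (−0.025 to 0.081), and the ratio change for Lcn2 at 14 d (−0.031 to 0.35) and 5 d (−0.22 to 0.14) and Lgals1 at 5 d (−0.052 to 0.15) and 70 d (−0.19 to 0.13). By Spearman correlation 0, 0, 1, 2, 2 and 0 companions were shared for Lgals1, Lgals3, Lgals3bp, Lgals8, Lgals9 and Lcn2. Over all genes, the count called moved by over 1.5 times with only the groups compared from 28 to 42 d (1.67% of genes, 2 genes), 42 to 70 d (2293 to 158 genes), P0 to P7 (3619 to 364), P7 to P21 (2767 to 5059) and P21 to P63 (1664 to 3662), and for mGfap 14 d against P0 (9398 to 6045). From 28 to 42 d DESeq2 called 730 and the block 186, and labelled sex moved the count between uninjured lines from 2213 to 729 and that of the line responses from 2258 to 1423.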
